A study of Danio rerio with 6 samples.

Results

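The genes described here are the zebrafish zinc finger genes whose symbols begin with znf and a number. They were taken from a table of read counts per gene entry by name, with a suffix such as _1 kept as an entry of its own, and an entry was kept when it held at least 10 counts in 3 or more of the 6 libraries. This left 203 entries of 214 with such a name, among 53709 entries in the table, and they carry 175 distinct symbols. The members were thus chosen by their names and selected on their counts in all 6 libraries. Within the family, the difference between the groups entered this selection on counts only at the lowest counts. The family itself was chosen with earlier results of these data known, so the difference between the groups may have entered that choice.

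Messenger RNA was measured in regenerating tail fin of male zebrafish, Danio rerio, 4 days after the fin was cut. The tissue is the blastema, a mass of dividing cells from which the fin regrows. Fish of the control group were held in distilled water, and fish of the other group in water with 2 mg/L of zinc oxide nanoparticles made with propolis extract (Pro-ZnO in the labels, ZnO here), each fish in 150 mL for the 4 days. Each group had 3 libraries. No strain, age or genotype is given in the labels, no group received dissolved zinc or propolis alone, and how fish were divided among libraries is not stated, so the p-values rest on a spread between libraries that may be technical.

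A zinc finger is a short protein fold held together by a zinc ion, most often between paired cysteines and histidines. In proteins of that type several fingers in a row read a DNA sequence, and many such proteins are transcription factors, but others bind RNA, ribosomes or other proteins. The zinc ion is structural in most of them. The zebrafish genome carries a large expanded set of such genes, many of them in arrays of similar copies. Symbols with 4 digits (63 entries here) belong to a later numbered series, while those with shorter numbers (140 entries) include the genes with a namesake in mammals. The split is by the number of digits alone. The shorter numbers also hold symbols just below the 4-digit ones, such as znf970, znf983 and znf990. The roles given below are known largely from human and mouse.

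Libraries held 26624174 to 31712994 counts, so that 1 count was worth 0.0316 to 0.0383 CPM (counts per 1e6 counts of the library, after scaling between libraries). Znf entries held 99070 to 108054 counts in the control and 89804 to 117756 in the ZnO libraries, or 0.346% ± 0.00851 and 0.371% ± 0.0321 of all counts (SD, n = 3 each). Markers of the labelled tissue were abundant, with 9 genes of blastema and fin mesenchyme summed to 4706 to 7220 CPM in control and 6989 to 8047 in ZnO libraries, and 7 epidermal genes to 15701 to 23695 and 23257 to 28369, while 5 muscle genes summed to under 1 CPM in every library. Of the blastema genes 7 of 9 were positive, with 5 at an unadjusted edgeR p under 0.05 and none past the threshold, and of the epidermal genes 4 of 7 were positive. A set of 9 neutrophil markers summed to 447 to 526 CPM in control and 81.5 to 189.8 in ZnO libraries, with 9 of 9 negative and 4 of them past the threshold, and 7 erythrocyte markers to 24.4 to 138 and 138 to 367 CPM, with 6 of 6 tested positive and none past it. Macrophage markers summed to 1912 to 2504 and 1418 to 1945 CPM, lymphocyte markers to 57.3 to 79.0 and 30.7 to 66.9, and osteoblast markers to 4952 to 7681 and 6797 to 8272, each with overlapping sums and none past the threshold. Each list still had 1 direction, with 0 of 6 tested macrophage, 0 of 6 lymphocyte and 6 of 6 osteoblast markers positive. Of these, 2, 1 and 3 were at an unadjusted edgeR p under 0.05, as were 9 neutrophil, 3 erythrocyte and 1 epidermal marker. Over all tested entries 7.72% were higher and 8.2% lower at that p. The blastema and epidermal counts at that p were not split by direction. No marker with an entry was at 0 in all libraries, while cxcr1, ighm and krtt1c19e have no entry, and the part of these shifts in the values below was not tested. In such bulk tissue fewer cells of a type and less RNA per cell cannot be told apart.

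Znf transcripts stood slightly higher in the ZnO libraries as a family, with small differences at each gene. Of the 202 tested entries 149 had a positive log2 fold change of ZnO over control (73.8%), against 52.0% of all 25962 tested entries, and their median was 0.16, against 0.015 over all entries. The quartiles of the znf entries were -0.022 and 0.34 on that scale, against -0.21 and 0.23. Summed over all 203 entries the level was 3549, 3490 and 3380 CPM in the control and 3730, 3441 and 3935 CPM in the ZnO libraries. ZnO 2 lay within the control range in this sum, so the groups overlapped. The 8 entries with the most counts made up 21.2% of the sum in ZnO 2 and 26.5% to 30.5% in the other libraries. Taken entry by entry, the median log2 ratio to the control mean was 0.14 in ZnO 1, 0.13 in ZnO 2 and 0.13 in ZnO 3, and between -0.0086 and 0.013 in the control libraries, whose own mean is the reference. The median was thus positive in all 3 ZnO libraries, including ZnO 2, the lowest of them in the sum. These ratios are the same values that gave the family median, so they are no further support for it.

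**Figure D1:**
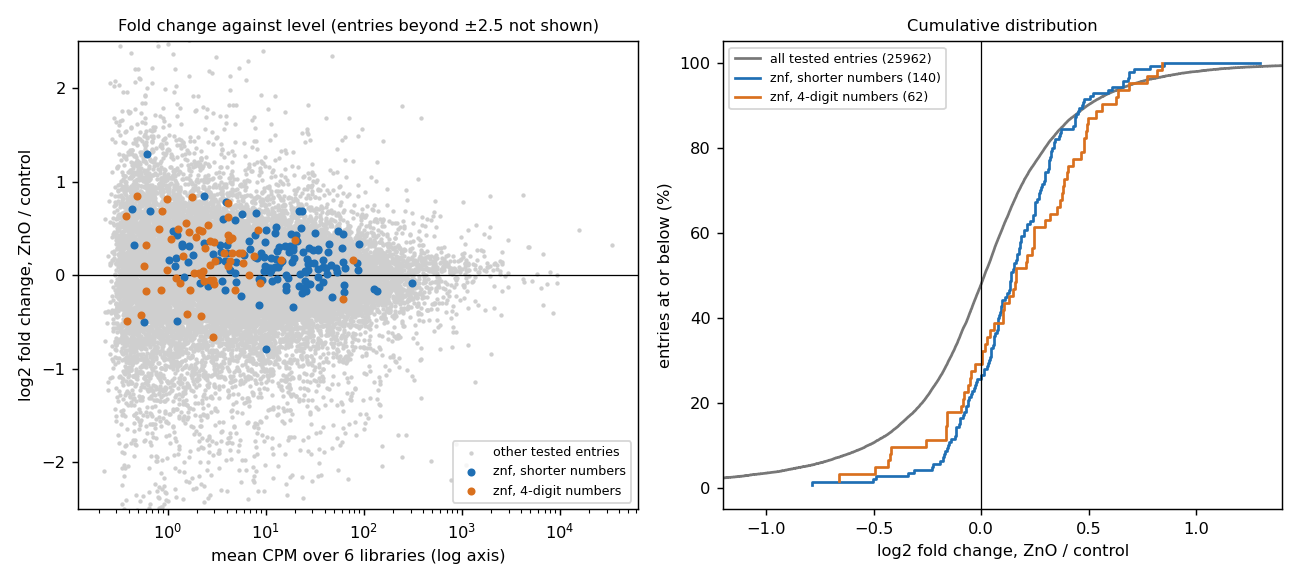
Log2 fold change of ZnO over control against mean CPM on a log axis (left) and its cumulative distribution (right), for all tested entries (grey), znf entries with shorter numbers (blue) and with 4-digit numbers (orange). Both znf curves lie to the right of the grey curve over most of their length, with medians of 0.14 and 0.19 against 0.015, and grey points beyond 2.5 in either direction are not drawn.

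**Figure D2:**
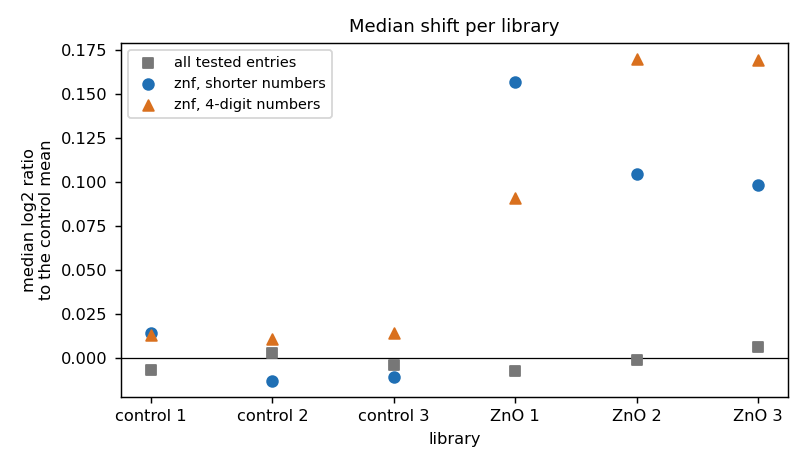
Median over entries of the log2 ratio of each library to the control mean, for all tested entries (squares), znf entries with shorter numbers (circles) and with 4-digit numbers (triangles). The 3 ZnO libraries lie at 0.091 to 0.17 for both znf series and between -0.0075 and 0.0062 for all entries.

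No single znf entry passed the main test, that of edgeR over all genes. With edgeR's quasi-likelihood test and Benjamini-Hochberg adjustment 0 of 202 were higher and 0 lower, where 0.0963% and 0.331% of all entries were called. DESeq2 called 3 higher and 0 lower, namely znf395a, znf507 and znf503. That share, 1.49%, is near the 1.6% called higher among all entries, and 2.91% of all entries were called lower. limma-voom called 0 znf entries in either direction. At an unadjusted edgeR p under 0.05, 33 znf entries were higher and 1 was lower, or 16.3% and 0.495%, where the shares over all entries were 7.72% and 8.2%. The groups did not overlap at 44 znf entries that were higher and at 1 that was lower, or 21.8% and 0.495%, against 11.3% and 11.2% of all tested entries. The total share of entries at p under 0.05 was thus close to that of the whole table, and nearly all such znf entries lay in 1 direction. With 1 library left out these counts were 20 to 25 higher, the fewest without ZnO 2, and 0 to 3 lower, the most without ZnO 1. The 33 entries had log2 fold changes of 0.27 to 1.29 and edgeR adjusted p-values of 0.0819 to 0.314. Both the 33 and the 44 count znf488, which holds the highest of these values and met the count threshold mainly through the ZnO group, and without it the highest is 0.85. The family was not tested as a set, since it was chosen with results of these data known.

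The znf medians lay above those of all entries at each level of counts. Among entries with a mean of 10 CPM or more, 89 znf entries had a median of 0.093 on the log2 scale and 71.9% were positive, against -0.0019 and 49.7% over all 11727 entries of that level. Between 1 and 10 CPM the 96 znf entries had a median of 0.21 and 76.0% positive, against 0.043 and 54.5%. Below 1 CPM there were 17, with a median of 0.32 and 70.6% positive, against 0.044 and 52.6%. These 17 hold znf488 and znf1046, which met the count threshold mainly through ZnO libraries, and znf1147, which did so through controls, so their values are no support for a shift. The other 14 had a median of 0.32. These levels are counts per entry without a length correction, so they do not rank the genes by transcript number.

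The 6 znf entries with the smallest p-values were all higher in ZnO, namely znf395a, znf507, znf516, znf503, znf703_1 and znf414. znf395a, named for a human factor that is induced by low oxygen, stood at 19.3, 18.6 and 16.7 CPM in the control and 24.5, 33.1 and 30.1 CPM in the ZnO libraries. Each ZnO library lay above each control, with a difference of 0.68 ± 0.14 log2 units (SE; edgeR adjusted p = 0.0819, DESeq2 adjusted p = 0.0054). The edgeR adjusted p was 0.0468 without ZnO 1 and 0.0445 without the filter on low counts, and with any other library left out it stayed above 0.05. Its paralogue znf395b had the lowest fold change of all znf entries and lay at 16.0, 15.6 and 7.11 CPM in the control and 12.6, 4.14 and 5.61 CPM in ZnO. The groups overlapped there, with control 3 low and ZnO 1 high, and the value was -0.79 ± 0.48 log2 units (edgeR adjusted p = 0.486), running from -1.41 without ZnO 1 to -0.51 without ZnO 2. A mammalian relative of this gene is ZNF704, which has a pair of zebrafish entries. The first, znf704, was at 2.23, 1.83 and 1.01 CPM in control and 3.71, 2.99 and 2.44 in ZnO, without overlap (0.85 ± 0.32, edgeR adjusted p = 0.256), and znf704_1 overlapped between groups (0.21 ± 0.31).

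znf507 had the least spread of the leading genes. Its level was 4.40, 4.51 and 4.49 CPM in the control and 7.14, 7.01 and 6.98 CPM in the ZnO libraries, from 128 to 209 counts per library. The groups stood well apart, 0.66 ± 0.15 log2 units from each other (edgeR adjusted p = 0.0952, DESeq2 adjusted p = 0.0261). The SD within a group, 0.0576 CPM in control and 0.0837 in ZnO, was smaller than the counting error of 1 library at this depth, 0.385 and 0.4997 CPM (square root of the counts), so the SE of the fit is the better guide to its error.

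Both genes of the NET family, znf703 and znf503, had every ZnO library above every control. These encode repressors without DNA binding of their own, known in zebrafish as nlz1 and nlz2 from hindbrain patterning and closure of the optic fissure. znf503 was at 19.6, 14.1 and 16.5 CPM in the control and 23.0, 33.6 and 24.4 CPM in ZnO (log2 difference 0.69 ± 0.18, edgeR adjusted p = 0.139, DESeq2 adjusted p = 0.0366). Its ZnO values were spread mainly by ZnO 2. For znf703 the levels were 16.2, 16.4 and 13.6 CPM in control and 18.4, 19.8 and 24.4 in ZnO (0.44 ± 0.15, edgeR adjusted p = 0.215). The second entry, znf703_1, was at 20.8, 19.3 and 16.9 CPM and at 27.0, 23.8 and 30.2 (0.51 ± 0.14, edgeR adjusted p = 0.145). ZnO 3 was the highest library and control 3 the lowest at both entries, and entries of 1 symbol may share reads.

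**Figure D3:**
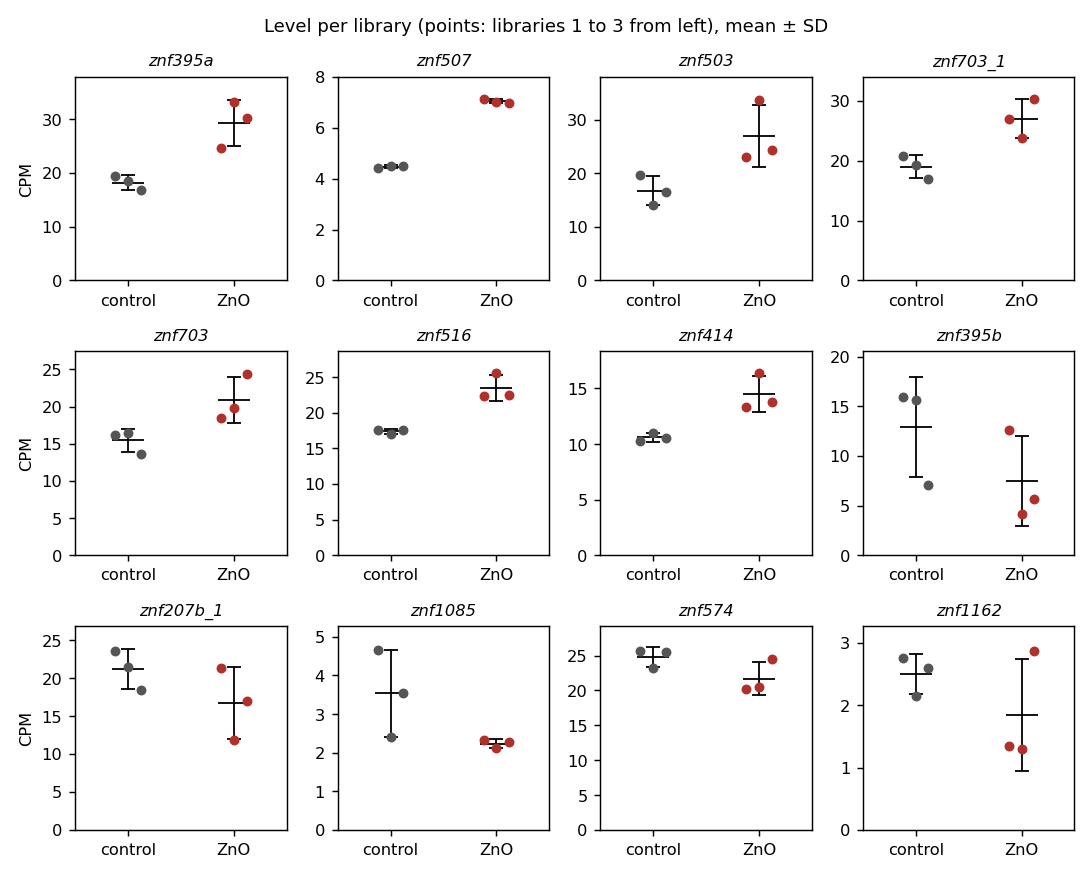
CPM in each library (points, libraries 1 to 3 from left in each group) with mean and SD, for 12 znf entries. They are the 6 higher entries with the smallest p-values, znf703, and 5 of the lower entries with small p-values or large changes. The 4 higher entries with the largest changes at a mean CPM of at least 1 are not drawn. The first 7 panels show entries whose ZnO libraries all lie above the controls. Among the 5 lower entries only znf1085 has groups that do not overlap.

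Other factors of fat, bone and connective tissue cells were mixed. znf516, which activates the brown fat programme in mouse, was at 17.6, 17.0 and 17.6 CPM in control and 22.4, 25.6 and 22.6 in ZnO (log2 difference 0.43 ± 0.11, edgeR adjusted p = 0.135). The 3 controls were close together and all ZnO libraries lay above them. znf423, a factor of fat cell precursors in mouse, was at 44.3 ± 6.01 CPM in control and 47.8 ± 1.45 in ZnO (SD, n = 3 each), and its second entry znf423_1 at 8.20 ± 2.05 and 9.70 ± 1.80. Its relative znf521, which acts in mouse osteoblasts, was at only 0.677 ± 0.159 and 0.478 ± 0.160 CPM. All groups overlapped for these entries, with log2 fold changes of 0.11, 0.24 and -0.50.

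znf414 was among the 6 higher entries with the smallest p, and no role is given for it here. It was at 10.3, 11.0 and 10.5 CPM in control and 13.3, 16.4 and 13.8 CPM in ZnO (log2 difference 0.45 ± 0.13, edgeR adjusted p = 0.169). ZnO 2 was its highest library. The 4 highest fold changes among entries of at least 1 CPM were those of znf704, znf1023, znf804a and znf1141. Of these znf804a was at 3.42, 1.73 and 3.51 CPM in control and 3.43, 4.87 and 6.62 in ZnO, where ZnO 1 lay within the control range (0.78 ± 0.33, edgeR adjusted p = 0.301).

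Families of related znf genes, chosen for description after their values were seen, were higher in part. Of the znf385 genes, the human namesake ZNF385A encodes a partner of p53. All 5 entries had positive values, namely znf385a (log2 difference 0.37), znf385a_1 (0.46), znf385b (0.23), znf385c (0.61) and znf385d (0.66 ± 0.21, edgeR adjusted p = 0.185). Only at znf385d did the groups not overlap, with 8.18, 5.21 and 5.19 CPM in control and 9.01, 10.3 and 10.0 in ZnO. The genes znf532, znf592 and znf687 are related in human cells through a chromatin reader, ZMYND8, that their proteins bind. znf532 was at 9.85, 7.68 and 7.46 CPM in control and 11.1, 11.5 and 12.3 in ZnO (0.48 ± 0.15, edgeR adjusted p = 0.195), znf687a at 22.0 ± 0.618 and 26.1 ± 2.62 (0.25 ± 0.12), and znf687b and both znf592 entries differed by 0.045 to 0.093 on the log2 scale with overlapping groups.

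General promoter-binding factors showed small differences. znf143, which drives small nuclear RNA genes and many housekeeping promoters, has 4 entries. znf143a stood at 16.1 ± 1.70 CPM in control and 16.1 ± 1.07 in ZnO, and znf143b at 10.3 ± 0.340 and 10.9 ± 1.90. The log2 fold changes of these and of the 2 further znf143b entries ran from -0.05 to 0.25 (edgeR adjusted p 0.551 to 0.996). znf148, a factor of GC-rich promoters, was at 30.2, 28.9 and 24.5 CPM in control and 34.0, 32.0 and 34.7 in ZnO (0.27 ± 0.12, edgeR adjusted p = 0.314). znf384a, whose mammalian namesake binds promoters of matrix metalloproteinases, was at 39.7 ± 3.90 and 47.1 ± 1.94 CPM (0.25 ± 0.11, edgeR adjusted p = 0.329), and znf281b at 15.8 ± 2.11 and 18.8 ± 0.717 (0.25 ± 0.13). At these 3 genes the ZnO libraries lay above the controls, at znf281b by less than 0.01 CPM between control 1 and ZnO 1. Their paralogues znf384b and znf281a overlapped, with log2 fold changes of 0.032 and -0.041.

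Among members with roles in RNA, ribosomes, the spindle and the nucleus, znf598, the ubiquitin ligase that marks collided ribosomes in human cells, was at 51.8, 52.0 and 48.6 CPM in the control and 48.6, 29.8 and 51.7 CPM in the ZnO libraries. ZnO 2 was the 1 low library, and the value of -0.23 ± 0.19 log2 units (edgeR adjusted p = 0.619) was -0.033 without it. znf638, a nuclear matrix protein that silences unintegrated viral DNA in human cells, was at 145, 152 and 141 CPM and at 146, 111 and 132 CPM (-0.17 ± 0.13, edgeR adjusted p = 0.559), and znf638_1 had -0.18. znf318, which controls immunoglobulin D transcripts in mouse B cells, was at 130, 134 and 136 CPM and at 143, 92.9 and 125 CPM (-0.15 ± 0.16). ZnO 2 was the lowest ZnO library at these 3 genes, and without it znf638 had -0.084 and znf318 -0.0077 on the log2 scale. The ribosome assembly genes znf622 and znf593 had log2 fold changes of -0.12 ± 0.14 and 0.027 ± 0.17. The spindle factor gene znf207a had -0.10 ± 0.13, and the 3 entries of znf207b ran from -0.34 to 0.013. znf346, which encodes a protein that binds double-stranded RNA, was at 39.7 ± 3.71 and 37.9 ± 4.53 CPM. The groups overlapped at all of these entries.

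Of 28 members listed for a described role, 16 were positive (57.1%), with a median log2 fold change of 0.045. At an unadjusted edgeR p under 0.05 there were 4 higher and 0 lower, namely znf395a, znf503, znf703 and znf148, or 14.3% higher against 7.72% of all entries. The groups did not overlap at 6 that were higher, or 21.4%, against 11.3%. In sign and median the list thus stood between the whole table and all znf entries, and in these shares close to all znf entries. The other members of that list not named so far were close to 0 or spread: znf106a had 0.13, znf277 -0.036, znf365 0.32, znf410 0.058, znf462 0.15, znf536 0.18 and znf750 0.13 on the log2 scale, with edgeR adjusted p-values of 0.623 to 0.926.

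**Figure D4:**
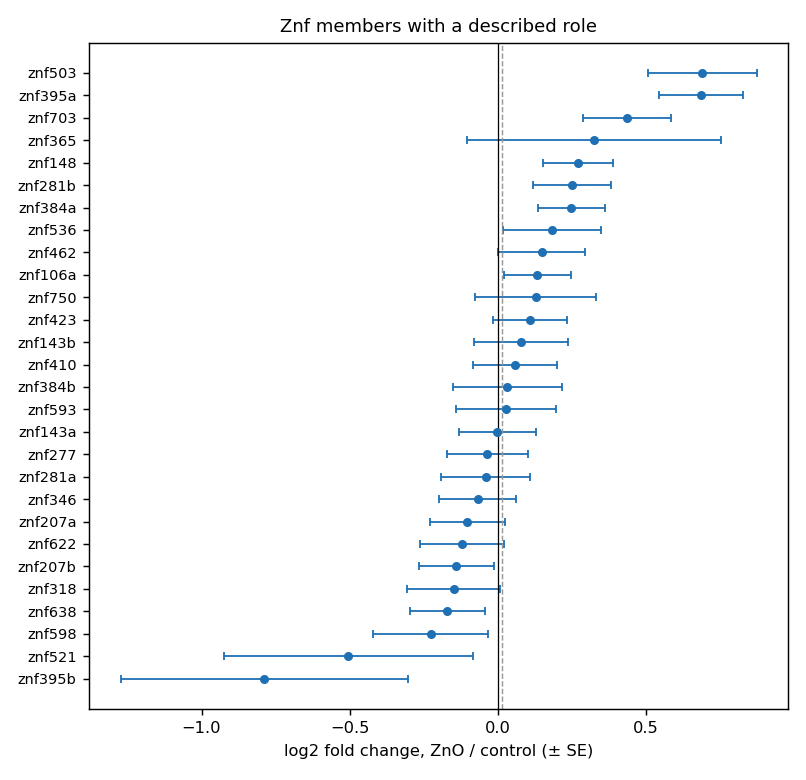
Log2 fold change of ZnO over control with SE for the 28 znf members with a described role, in order of value, with the median of all tested entries as a dashed line. Values run from -0.79 at znf395b to 0.69 at znf503, and 14 of the 28 lie within 1 SE of the dashed line.

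The znf entries with the most counts included genes of skin and matrix. znf185, which encodes an actin-associated LIM domain protein, held the most, at 382, 318 and 267 CPM in the control and 284, 167 and 462 CPM in the ZnO libraries. ZnO 2 was its lowest and ZnO 3 its highest library, so the spread within the ZnO group exceeded the difference between groups (log2 difference -0.083 ± 0.35). Its counts were 4356 in ZnO 2 and 13833 in ZnO 3. Without znf185, a sum formed after its values were seen, the znf entries summed to 3166, 3172 and 3113 CPM in the control and 3446, 3274 and 3473 CPM in the ZnO libraries, and the groups did not overlap. znf750, a driver of epidermal differentiation in human skin, was at 75.8, 102 and 66.3 CPM and at 84.0, 72.3 and 111 CPM, again with ZnO 3 highest in its group. znf469, mutated in a human disorder of corneal collagen, was at 97.4, 75.4 and 65.3 CPM in control and 100.2, 88.4 and 112 in ZnO (0.34 ± 0.17, edgeR adjusted p = 0.370), with overlapping groups. The remaining entries of the 8 with the most counts, znf865, znf609b and znf1035, had log2 fold changes of 0.053, 0.076 and 0.16.

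The 4-digit and the shorter numbers had similar shares of positive values. Of 62 tested entries 45 were positive (72.6%) with a median log2 fold change of 0.19, and of 140 with shorter numbers 104 were positive (74.3%) with a median of 0.14. The difference between the series was not tested. At an unadjusted edgeR p under 0.05 the 4-digit series had 5 higher and 1 lower, or 8.06% and 1.61%, and the shorter numbers 28 higher and 0 lower, the former being 20%. Over all entries the shares were 7.72% and 8.2%, so the higher count of the 4-digit series is near that of the whole table. Between 1 and 10 CPM, 3 of 46 4-digit entries and 9 of 50 with shorter numbers were higher at that p. In the same band 1 and 0 were lower. Over all entries of that level 784 of 10259 were higher and 785 lower. The 4-digit entries held fewer counts, with a median of 68.3 per library against 395.8. They had a larger spread between controls, with a median SD of log2 CPM of 0.200 against 0.143. Their summed level was 315, 334 and 317 CPM in the control and 355, 322 and 366 CPM in the ZnO libraries, with ZnO 2 inside the control range.

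Within that series znf1141 stood at 3.28, 4.09 and 1.80 CPM in control and 5.55, 5.90 and 4.21 in ZnO, without overlap (log2 difference 0.77 ± 0.30, edgeR adjusted p = 0.266). znf1014, chosen after its values were seen, was at 6.77, 7.15 and 7.11 CPM and at 8.46, 11.3 and 9.52 CPM (0.48 ± 0.16, edgeR adjusted p = 0.201). znf1007, chosen likewise, was at 17.1, 16.7 and 17.9 CPM and at 24.0, 19.3 and 23.9 CPM (0.38 ± 0.13, edgeR adjusted p = 0.213). In both genes the controls were tight and every ZnO library was higher. znf1023 was among the largest positive changes but overlapped, since ZnO 2 had 0.920 CPM beside 3.09 and 2.81 (0.84 ± 0.53).

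The 1 znf entry that was lower without overlap was znf1085. It was at 4.66, 2.40 and 3.54 CPM in the control and 2.32, 2.11 and 2.27 CPM in the ZnO libraries (log2 difference -0.66 ± 0.27, edgeR adjusted p = 0.282). Control 2 lay only just above the ZnO libraries, and without control 1 the value was -0.41. Among entries of at least 1 CPM the other lower ones with the largest changes, znf989 (-0.49 ± 0.43) and znf1162 (-0.44 ± 0.34), overlapped between groups, and so did znf207b_1 (-0.34 ± 0.21) and znf574 (-0.19 ± 0.12), which had among the smallest p-values on the lower side (edgeR adjusted p 0.480 to 0.627 over these 4).

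Genes next to each other had values of both signs, and the groups overlapped at all of them. The symbols of 195 of the 203 entries were found in the RefSeq gene table of another assembly, GRCz12tu, which was used for gene order alone. In it 1 run of at least 3 znf genes with no other coding gene between them was found, made of znf1154, znf1179, znf1184 and znf1002. Their log2 fold changes were 0.24 ± 0.20, -0.26 ± 0.22, -0.16 ± 0.20 and 0.13 ± 0.19. When up to 5 other coding genes were allowed between neighbours, 4 runs held 20 entries, with a median of 0.13 and 14 positive. The median was 0.16 over the other 182 entries. Entries whose symbols were not found in that assembly were counted among the 182, though their position is unknown.

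Where a gene symbol has several entries, these mostly had the same sign. Of 24 symbols with 52 entries, all entries were positive in 15, all negative in 3 and mixed in 6. As 73.8% of all tested znf entries were positive, unrelated entries would often share a sign too. The same holds for the paralogue pairs below. The distance between the highest and lowest log2 fold change of a symbol had a median of 0.11. The largest, 1.20, was at znf989, whose entry without suffix was lower and whose entry znf989_1 was higher (0.71 ± 0.49), both at low counts. Entries of 1 symbol, like similar copies in the 4-digit series, may have been assigned the same reads, and how reads that map to several places were treated is not given, so their values are less certain and not independent. Among 15 pairs of paralogues named a and b, compared at the entry without suffix, both were positive in 9 and both negative in 1. The signs differed in 5, with the widest distance at znf395a and znf395b (1.47). Further entries of these genes did not always keep the sign. znf644b_1 had -0.16 and znf207b_2 0.013, while znf644b_2 had 0.15 and znf207b_1 -0.34.

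**Figure D5:**
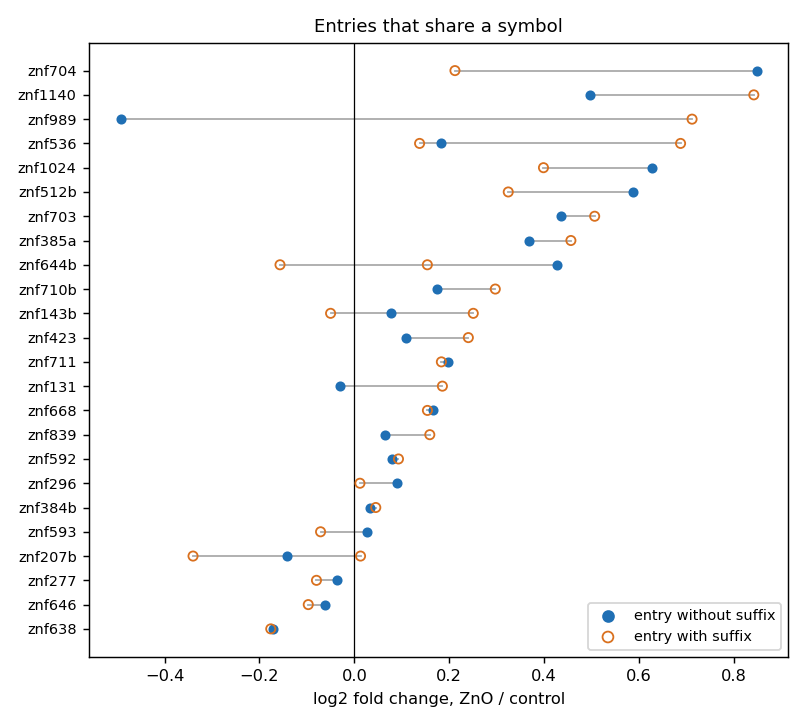
Log2 fold change of the 52 znf entries that share a symbol with another, for 24 symbols, with filled points for the entry without suffix and open points for entries with one. Points of a symbol lie farthest apart at znf989, znf704, znf644b and znf536, and the median distance is 0.11.

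The spread between libraries was slightly larger in the ZnO group at single entries and more so in their sum. The summed znf level had an SD of 85.8 CPM in control and 248 in ZnO libraries. The median SD of log2 CPM over the znf entries was 0.160 in control and 0.190 in ZnO libraries, and 0.121 and 0.149 among entries of at least 10 CPM. No library was the extreme of its group throughout. ZnO 2 was the lowest ZnO library at 70 entries and the highest at 83, and ZnO 3 at 65 and 61. The most variable entries in ZnO were znf395b, znf1023 and znf185, with SDs of 0.78, 0.74 and 0.73.

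Entries at the threshold of the rule were few. Of the 203 members, 191 had at least 10 counts in all 6 libraries and 2, znf1072 and znf989_1, in exactly 3. znf1072 had 5, 10 and 11 counts in control and 2, 6 and 10 in ZnO libraries and was not tested. Just outside, znf541 had 8, 13 and 5 counts in control and 10, 2 and 4 in ZnO, znf804b had 6, 1 and 10 and then 5, 5 and 11, and znf1005_2 had 9, 10 and 2 and then 7, 5 and 17. Members that passed mainly through 1 group were znf488, znf1046 and znf1147. znf488, whose mammalian namesake acts in oligodendrocytes, had 9, 16 and 7 counts in control and 24, 23 and 28 in ZnO, and its log2 fold change of 1.29 ± 0.43, the highest of all members, belongs to an entry that passed the count threshold mainly through the group where it is high.

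Zinc finger genes with other names were compared only for where the znf entries stand. The zbtb genes, which join zinc fingers to a BTB domain, had a median of 0.074 on the log2 scale, 32 of 56 being positive, and the prdm genes 0.17 with 10 of 15. Factors with other names, such as ctcf and the gli genes, had 0.11 with 53 of 71 positive. The zc3h genes, with another type of finger that binds RNA, had -0.067 with 8 of 22 positive. The 28 genes listed as silencing partners of zinc finger proteins, such as setdb1a and dnmt1, had -0.033 with 10 positive. Whether those partners act with zebrafish znf proteins was not tested. These medians are descriptions, and their differences from the znf entries were not tested. At an unadjusted edgeR p under 0.05 these 5 lists together had 15 higher and 13 lower of 192 entries, or 7.81% and 6.77%, near the 7.72% and 8.2% of the whole table. The lists differed, with 9 higher and 3 lower among the 71 factors with other names. The zbtb genes had 3 and 4, prdm 2 and 2, zc3h 0 and 3, and silencing partners 1 and 1. Of the factors with other names 74.6% were positive, against 73.8% of the znf entries, so that share was not particular to znf names.

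Past the edgeR threshold, 2 of the 192 entries of these lists were lower and 0 were higher. Over all tested entries 0.331% were called lower and 0.0963% higher. prdm1b, a member of the Blimp-1 group of repressors, fell from 12.6 ± 2.83 CPM in control to 4.06 ± 1.15 in ZnO (SD, n = 3 each; log2 fold change -1.63 ± 0.25, edgeR adjusted p = 0.0467), and bcl6ab, a relative of the germinal centre repressor Bcl6, from 34.7 ± 3.34 to 14.2 ± 3.68 CPM (-1.28 ± 0.19, edgeR adjusted p = 0.0418). The groups did not overlap at either gene, the same ZnO libraries had the low neutrophil markers given above, and their part in these values was not tested. Both adjusted p-values lay just under 0.05, and neither gene was followed with 1 library left out. Lower calls over the whole table then ran from 12 to 282, against 86 with all libraries. They were 282 without ZnO 1 and 12 to 32 without any other library. zc3h12a, an RNase that degrades cytokine transcripts, had -1.22 ± 0.25 and did not pass (edgeR adjusted p = 0.0821). Nor did zc3h12ab, with -1.04 ± 0.21 (edgeR adjusted p = 0.078). DESeq2 called 3 higher and 2 lower among the 71 factors with other names. In the zc3h and in the prdm list it called 0 higher and 2 lower, and 0 in either direction among zbtb genes and silencing partners. Over all entries it called 1.6% higher and 2.91% lower. The zinc-sensing factor gene mtf1, which drives metallothioneins, was at 5.39, 6.23 and 6.64 CPM in the control and 6.52, 7.70 and 6.25 CPM in the ZnO libraries (0.16 ± 0.17, edgeR adjusted p = 0.686), with overlapping groups.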

How the data were processed

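Per the labels' protocols, poly(A) RNA was sequenced in read pairs (Illumina NextSeq). The authors deposited raw counts per gene entry, 1 column per library, matched by library name. The submitters' processing notes name GRCz11 and the tools BWA, cutadapt, DESeq2 and HTSeq. The sources used here do not give their versions, the annotation, the strand setting or how multiply mapped reads were counted, so near-identical copies and overlapping or antisense genes are uncertain.

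The test was edgeR's quasi-likelihood F test, 2-sided, with a robust fit and group as the only term. Before it, filterByExpr kept entries at a minimum count of 10 and TMM gave factors of 0.981 to 1.02. P-values were adjusted by Benjamini-Hochberg over all 25962 entries, with 0.05 as threshold. SE is the log2 fold change divided by the root of the F statistic. CPM is TMM-scaled. Library medians used log2(CPM + 0.5). On simulated data for ZnO against control (25567 entries), the test recovered 14% of the entries altered 1.5-fold, 74% at 2-fold and 100% at 4-fold and at 8-fold, and made 9 false calls. The altered entries were drawn only from those with a mean over 100 counts, and their spread followed the trend over levels. These shares do not cover entries with fewer counts, and the 4-digit znf entries had a median of 68.3.

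Members and lists were chosen with earlier results of these data known. Named entries were the 6 with the smallest p and the 4 with the largest change (mean CPM of at least 1) in each direction, the 8 with the most counts, 28 members of a role list of 30 names, those at the threshold and second entries of a name. Those said to be chosen after their values were seen, the families, paralogue pairs, most variable entries and members that passed through 1 group fall outside that rule, as do the level bands and wider neighbour runs. Zinc finger motifs and protein identity, which had been planned, were not used here. Alternatives were other scalings, DESeq2, limma-voom, other filters, summed entries, the replicate block and each library left out. Tools were edgeR 4.0.16, DESeq2 1.42.0 and limma 3.58.1 under R 4.3.3. Tables and figures used matplotlib 3.10.9, pandas 2.3.3 and numpy 2.4.6 under Python 3.11.15.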

Additional observations from a re-analysis of the deposited data

How the results depend on the processing

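The znf entries stayed above the whole table in every setting tried: their median log2 fold change was 0.12 to 0.16, with 69.5% to 74.3% positive. It was 0.14 with a mean of at least 50 counts, and ran from 0.12 to 0.16 with 1 library left out. Higher znf calls numbered 3 by DESeq2, 1 without the count filter (znf395a), 0 to 1 with 1 library left out (the 1 without ZnO 1), and 0 otherwise. Over the whole table, edgeR's 25 higher and 86 lower became 420 and 766 by DESeq2, 8 and 47 by limma-voom, 122 and 283 without the filter, 12 and 52 with a mean of at least 50 counts, and 3 and 29 with the replicate block. With 1 library left out they ran from 0 to 87 and from 12 to 282. The 87 and 282 came without ZnO 1. With any other library left out the ranges were 0 to 4 higher and 12 to 32 lower. The 1 lower znf entry without overlap became 2 with DESeq2 size factors, 2 with entries of a symbol summed, and 5 to 10 with 1 library left out, where smaller groups overlap less by construction. Same-numbered libraries deviated together by correlations of 0.026, -0.040 and 0.075, and not every library correlated best with its own number, so the numbers were not taken to pair them.

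Of 850 refits of named entries 32 turned the sign, in entries whose own values lay between -0.083 and 0.14 on the log2 scale. With library totals, limma-voom and the block znf143a had 0.0059, 0.0042 and 0.00097, and with entries summed znf593 had -0.024. The other sign changes came with 1 library left out, which gave -0.055 to 0.087 for znf143a, -0.039 to 0.19 for znf143b, -0.19 to 0.089 for znf143b_1, -0.52 to 0.19 for znf185, -0.14 to 0.095 for znf207b_2, -0.22 to 0.0052 for znf277_1, -0.14 to 0.060 for znf281a, -0.17 to 0.0016 for znf346, -0.092 to 0.25 for znf384b, -0.095 to 0.17 for znf384b_1, -0.11 to 0.13 for znf410, -0.060 to 0.35 for znf536_2, -0.046 to 0.11 for znf593, -0.23 to 0.024 for znf593_1, -0.060 to 0.32 for znf750 and -0.053 to 0.18 for znf865. The causes were not tested. Counting error limits most the entries under 1 CPM.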
